A study of Mus musculus with 11 samples.

Results

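Ribosome footprints of the growth-arrest gene Cdkn1a and of the hypoxia genes Ndrg1, Slc2a1, Slc2a3 and Bnip3 were examined in mouse cortex 3 h after a stroke. These 5 genes were chosen by name, and 4 of them were present among the 4338 genes of the count table. Bnip3 was not analysed here. Each gene stood for its transcript with the highest count summed over the 11 libraries, which was 152 for Cdkn1a, 127 for Ndrg1, 301 for Slc2a1 and 772 for Slc2a3. The names were picked with earlier results of these data known, so the changes below describe these libraries and are not an independent test. Cdkn1a and Ndrg1 footprints were 2.15- to 2.68-fold higher in the occluded hemisphere than in either other group, without passing the test over all genes. For the glucose transporters Slc2a1 and Slc2a3 the 95% interval of every change included 0.

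A ribosome footprint is the piece of mRNA left undigested under a ribosome after nuclease treatment. Footprints were prepared from dissected cortex of wild-type C57BL6 mice aged 7 to 8 weeks, and ribosomes were captured through the large-subunit protein P0. The ipsilateral group (n = 4, replicates 2, 4, 5 and 6) was the right hemisphere, whose middle cerebral artery was blocked with a filament for 35 min under isoflurane, followed by 3 h of reperfusion. The contralateral group (n = 4, replicates 1, 4, 5 and 6) was the opposite hemisphere of animals given the same surgery, and the sham group (n = 3, replicates 1, 2 and 5) came from mice that had the anaesthesia and the exposed arteries but no filament. The side of the sham cortex is not stated. The tissue entry of the 4 ipsilateral samples names the contralateral hemisphere, whereas title and description give the ipsilateral side, and the titles were followed. Replicate numbers mark days of surgery. No total RNA was analysed here, so more transcript and more translation cannot be told apart, and neither can more cells of a type and more RNA per cell.

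Cdkn1a encodes p21, which binds cyclin-dependent kinases and stops the cell cycle, and its transcription is driven by p53 and by other stress signals. Low oxygen stabilises the transcription factor HIF-1, whose targets include the glucose carriers GLUT1 (Slc2a1) and GLUT3 (Slc2a3), the cytoplasmic protein NDRG1 and the mitochondrial protein BNIP3, which promotes removal of mitochondria. In brain, GLUT1 is the carrier of the blood-brain barrier endothelium and of astrocytes, and GLUT3 is the neuronal carrier. NDRG1 is found in myelinating glia, and loss of the human gene causes a demyelinating neuropathy.

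Counting each gene by its one transcript, the libraries summed to 35068 to 137341 in ipsilateral, 137372 to 571351 in contralateral and 64460 to 256657 in sham cortex. Levels are CPM, counts scaled to library totals of 1000000 after TMM normalization. At these depths 1 count was worth 29.3 CPM in ipsilateral replicate 4, 15.7 CPM in sham replicate 2 and 1.78 CPM in contralateral replicate 6, so single values of low genes rest on few counts. Fixed markers of brain cells were read, which cannot tell cortex from other brain regions or one hemisphere from the other. All 12 neuron and all 10 astrocyte markers had counts. Summed neuron markers stood at 12501 to 15092 CPM in ipsilateral, 13200 to 15518 CPM in contralateral and 13892 to 15074 CPM in sham cortex.

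The deposited counts appeared to cover the coding sequence. Among isoforms of a gene that differ in exons, 1732 of the 1750 pairs with the same coding sequence had identical counts in all 11 libraries, a share of 99%, against 1749 of the 12634 pairs with different coding sequences, a share of 13.8%. The 3 Cdkn1a isoforms of the table, which differ outside the coding sequence, all carried the same counts. Levels of different genes are therefore set side by side only per kb of coding sequence.

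Cdkn1a lies at chr17:29090976-29100727 on the plus strand of mm10, with 3 exons and a short coding sequence of 477 nt before the stop codon. No 28-nt word of the transcript occurs in another gene, and its overlap of 93 nt with the antisense gene AC167363.2 lies outside the coding sequence. Its first 300 nt are printed to identify the counted sequence, from the GENCODE vM21 transcript, with the start codon in capitals.
Cdkn1a: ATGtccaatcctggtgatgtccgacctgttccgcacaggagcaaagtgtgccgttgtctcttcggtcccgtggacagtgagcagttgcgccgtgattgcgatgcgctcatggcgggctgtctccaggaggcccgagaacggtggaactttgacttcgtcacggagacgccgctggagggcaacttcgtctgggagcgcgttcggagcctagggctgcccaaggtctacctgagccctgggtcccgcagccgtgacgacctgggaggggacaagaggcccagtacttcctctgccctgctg

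Cdkn1a footprints were counted 16, 4, 7 and 27 times in ipsilateral replicates 2, 4, 5 and 6, which is 119.6, 117, 86.6 and 232 CPM. The contralateral replicates 1, 4, 5 and 6 held 7, 11, 18 and 34 counts, or 47.2, 84.1, 60.6 and 60.4 CPM. The sham replicates 1, 2 and 5 held 16, 1 and 11 counts, or 62.8, 15.7 and 58.2 CPM. Every ipsilateral library lay above every library of both other groups, although the lowest ipsilateral value, 86.6 CPM, was just above the highest contralateral value, 84.1 CPM. Ipsilateral replicate 6 was the highest library, and its exact Poisson interval of 153 to 338 CPM, which covers counting error only, lay above the other 3 ipsilateral values. The contralateral and sham values overlapped.

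Mean Cdkn1a levels were 139 ± 64.0 CPM in ipsilateral (SD, n = 4), 63.1 ± 15.4 CPM in contralateral (n = 4) and 45.6 ± 26.0 CPM in sham cortex (n = 3). Against sham, the ipsilateral log2 change was 1.42 ± 0.37 (SE), a 2.68-fold higher level with a 95% interval of 0.67 to 2.17 on the log2 scale (edgeR quasi-likelihood test, Benjamini-Hochberg adjusted p = 0.0978 over 3835 genes). Against contralateral cortex it was 1.24 ± 0.31, or 2.36-fold (interval 0.61 to 1.87, edgeR adjusted p = 0.0706). Contralateral and sham cortex differed by 0.18 ± 0.37 (interval -0.56 to 0.92, edgeR adjusted p = 1.00). The calls turned on single libraries: without ipsilateral replicate 5, the lowest of its group, the change was 1.59 against sham (edgeR adjusted p = 0.0319) and 1.41 against contralateral (0.0222), and without ipsilateral replicate 6 it was 0.98 (0.590) and 0.80 (0.884).

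**Figure D1:**
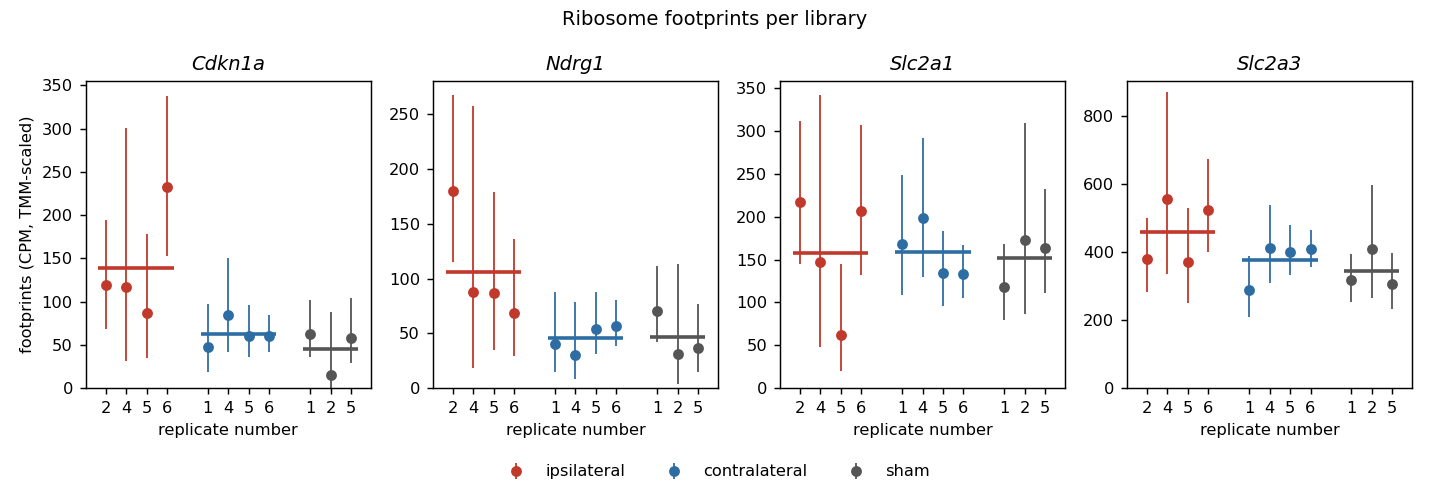
Footprints per library in CPM (vertical axes, which differ between genes) for ipsilateral, contralateral and sham replicates, with exact Poisson 95% intervals of the counts and a bar at each group mean. All 4 ipsilateral points of Cdkn1a stand above the contralateral and sham points, Ndrg1 has a single sham library among the ipsilateral values, and the groups of Slc2a1 and Slc2a3 overlap.

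Ndrg1 lies at chr15:66929318-66969640 on the minus strand of mm10, with 16 exons and a coding sequence of 1182 nt. Of these, 238 nt overlap genes on the other strand (Gm17035 or Gm2895). Whether the counting used strand is not given in the sources used here, so reads of these genes could be included. Ndrg1 was the scarcest of the 4 genes per kb of coding sequence (57.2 CPM), with 24, 3, 7 and 8 counts in ipsilateral replicates 2, 4, 5 and 6, or 179, 88.0, 86.6 and 68.8 CPM. The contralateral replicates 1, 4, 5 and 6 measured 40.4, 30.6, 53.8 and 56.8 CPM. The sham replicates 1, 2 and 5 measured 70.7, 31.4 and 37.1 CPM. All 4 ipsilateral libraries exceeded all contralateral libraries, and 3 of the 4 exceeded all sham libraries, with sham replicate 1 above ipsilateral replicate 6. Ipsilateral replicate 2 stood highest, at about 2-fold the next library.

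Ndrg1 averaged 106 ± 49.9 CPM in ipsilateral, 45.4 ± 12.2 CPM in contralateral and 46.4 ± 21.2 CPM in sham cortex (SD, n = 4, 4 and 3). Its ipsilateral log2 change was 1.11 ± 0.42 against sham (interval 0.27 to 1.95, edgeR adjusted p = 0.416) and 1.18 ± 0.36 against contralateral cortex (interval 0.45 to 1.91, edgeR adjusted p = 0.202). Contralateral and sham levels differed by -0.07 ± 0.40 (interval -0.89 to 0.74, edgeR adjusted p = 1.00). Without ipsilateral replicate 2 the ipsilateral change was 0.58 ± 0.52 against sham and 0.64 ± 0.47 against contralateral cortex (edgeR adjusted p = 0.875 and 0.783). Both estimates were positive but little larger than their SE. Without sham replicate 1, the highest of its group, the change against sham was 1.65.

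The other NDRG genes, which share its fold, were more abundant, and 0 of 3 passed in any comparison. Per kb of coding sequence and averaged over the 11 libraries, Ndrg1 stood at 57.2 CPM, Ndrg3 at 491 CPM, Ndrg2 (an astrocyte gene) at 1273 CPM and Ndrg4 (a neuronal gene) at 1492 CPM. Against sham, the ipsilateral log2 changes were -0.06 ± 0.17 for Ndrg2, -0.08 ± 0.19 for Ndrg3 and -0.15 ± 0.15 for Ndrg4. Against contralateral cortex they were -0.02 ± 0.15, -0.20 ± 0.17 and 0.07 ± 0.14. The edgeR adjusted p of the 3 genes ran from 0.844 to 1.00 over the 3 comparisons.

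Slc2a1 lies at chr4:119108711-119137983 on the plus strand, with 10 exons and a coding sequence of 1476 nt, of which 105 nt overlap Gm12868 on the other strand. It measured 217, 147, 61.9 and 206 CPM in ipsilateral replicates 2, 4, 5 and 6, from 29, 5, 5 and 24 counts. The contralateral replicates 1, 4, 5 and 6 measured 168, 199, 135 and 133 CPM. The sham replicates 1, 2 and 5 measured 118, 173 and 164 CPM. The 3 groups overlapped, and the ipsilateral group held both the highest library (replicate 2) and the lowest (replicate 5).

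The Slc2a1 means were 158 ± 71.1 CPM in ipsilateral, 159 ± 31.3 CPM in contralateral and 152 ± 29.6 CPM in sham cortex. The log2 change was 0.22 ± 0.30 between ipsilateral and sham (interval -0.39 to 0.83, edgeR adjusted p = 0.923). Between ipsilateral and contralateral cortex it was 0.16 ± 0.27 (interval -0.38 to 0.70, edgeR adjusted p = 0.958), positive although the ipsilateral mean CPM was the lower. It was 0.06 ± 0.27 between contralateral and sham (edgeR adjusted p = 1.00). A log2 change of Slc2a1 above 0.83 or below -0.39 thus lies outside the interval against sham, and changes between these are not resolved at these depths. None of the 16 fixed endothelial markers was analysed here, so the endothelial part of the Slc2a1 signal could not be set beside a marker.

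Slc2a3 was the most abundant of the 4 genes per kb of coding sequence (269 CPM, against 180.1 CPM for Cdkn1a). It lies at chr6:122727809-122801640 on the minus strand, with 10 exons and a coding sequence of 1479 nt, and 0.0509% of its 28-nt words occur in another gene, Slc2a4. The longest run of bases that the coding sequences of Slc2a1 and Slc2a3 share is 20 nt. Slc2a3 measured 381, 557, 371 and 525 CPM in ipsilateral replicates 2, 4, 5 and 6. The contralateral replicates 1, 4, 5 and 6 measured 289.7, 413, 400.4 and 408 CPM. The sham replicates 1, 2 and 5 measured 318, 408 and 307 CPM. Ipsilateral replicates 4 and 6 lay above every other library, whereas replicates 2 and 5 lay within the range of both other groups.

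Slc2a3 averaged 459 ± 96.2 CPM in ipsilateral, 378 ± 59.0 CPM in contralateral and 345 ± 55.6 CPM in sham cortex, the same order as for Cdkn1a, but neighbours in this order lay within their spread of each other. The ipsilateral log2 change was 0.42 ± 0.22 against sham (interval -0.02 to 0.86, edgeR adjusted p = 0.672) and 0.23 ± 0.19 against contralateral cortex (interval -0.15 to 0.62, edgeR adjusted p = 0.836). The contralateral change against sham was 0.19 ± 0.20 (interval -0.22 to 0.60, edgeR adjusted p = 0.964). Among the relatives of Slc2a3, means per kb over the 11 libraries were 171 CPM for the inositol carrier Slc2a13, 106 CPM for Slc2a1 and 42.0 CPM for Slc2a6.

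**Figure D2:**
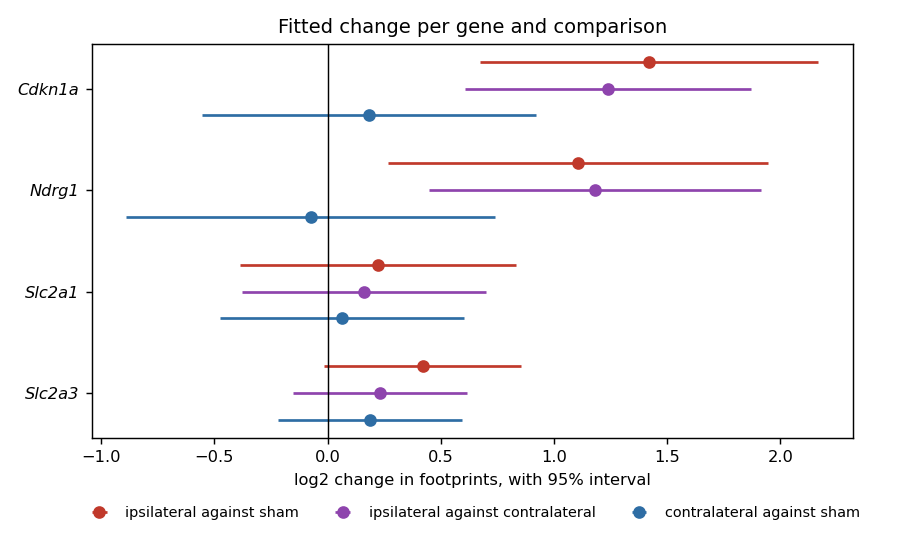
Fitted log2 changes of the 4 genes (horizontal axis, points with 95% intervals) in the 3 comparisons. The ipsilateral intervals of Cdkn1a and Ndrg1 lie above 0 before adjustment over all genes, those of Slc2a1 and Slc2a3 include 0, and so do the contralateral against sham intervals of all 4.

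Over the 4 genes, edgeR called 0 in each comparison. The share of all 3835 tested genes called was 0.104% for ipsilateral against sham, 0.365% for ipsilateral against contralateral and 0% for contralateral against sham. At an unadjusted p under 0.05 stood Cdkn1a and Ndrg1, 2 of 4, against sham (7.74% of all genes) and again against contralateral cortex (7.61%), and 0 of 4 in contralateral against sham (5.66%). DESeq2 and limma-voom also called 0 of the 4 in each comparison, and DESeq2 gave no adjusted p for Cdkn1a against sham or for Ndrg1 in either ipsilateral comparison. Every ipsilateral library was higher for 1 of 4 genes against sham, where 3.91% of all genes showed this, and for 2 of 4 against contralateral cortex, where 2.35% did. Every ipsilateral library was lower for 0 of 4, against 3.29% of all genes in the comparison with sham and 2.06% in that with contralateral cortex. These genes were picked with such values in view, so these counts are no measure of how unusual they are. Contralateral and sham libraries overlapped for all 4 genes, as against 3.39% of all genes with every contralateral library higher and 4.3% with every one lower. The ipsilateral comparisons share the ipsilateral libraries and are not independent of each other.

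The coding sequence of Slc2a3 was also read in part. A short annotated isoform covers nt 16 to 483 of the Slc2a3 coding sequence. For Slc2a1 the coding sequence of another isoform covers 519 nt that lie within the first 682 nt. Their counts were taken for the footprints near the start of each frame. The Slc2a1 isoform is annotated as a target of nonsense-mediated decay, and its exons cover 89.0% of the main coding sequence. Its counts mark the first part only if counting followed its own coding sequence. The Slc2a3 isoform also holds 21 nt that are not in the main coding sequence, so some of its counts may lie there. The Slc2a3 shares below refer to the isoform that covers nt 16 to 483, so the stretch printed here holds only part of it. Printed are the first 300 nt of the Slc2a3 frame, from the GENCODE vM21 transcript on the minus strand of chromosome 6, with the start codon in capitals.
Slc2a3: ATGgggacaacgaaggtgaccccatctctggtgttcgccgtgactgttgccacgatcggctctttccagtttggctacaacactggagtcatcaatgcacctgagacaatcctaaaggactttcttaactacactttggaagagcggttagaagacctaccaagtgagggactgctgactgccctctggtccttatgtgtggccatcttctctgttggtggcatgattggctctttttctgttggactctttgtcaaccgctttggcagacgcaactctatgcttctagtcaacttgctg

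Over all libraries the short Slc2a3 isoform held 44.3% of the gene's counts on 31.6% of its coding sequence, and the Slc2a1 isoform held 46.2% on 35.2%. The Slc2a3 share was 37.3%, 21.1%, 40.0% and 37.7% in ipsilateral replicates 2, 4, 5 and 6. It was 46.5%, 44.4%, 52.1% and 50.4% in contralateral replicates 1, 4, 5 and 6, and 32.1%, 30.8% and 48.3% in sham replicates 1, 2 and 5. Every ipsilateral share was below every contralateral share, and the sham shares spread over both ranges. The Clopper-Pearson 95% intervals are wide, 6.05% to 45.6% for the 19 counts of ipsilateral replicate 4 and 43.8% to 57.1% for the 230 counts of contralateral replicate 6.

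The mean Slc2a3 share was 34.0 ± 8.7% in ipsilateral and 48.4 ± 3.5% in contralateral cortex (SD, n = 4 each), a difference of -14.4 percentage points. A two-sided exact permutation test gave p = 0.0286, the smallest p that 4 against 4 libraries allow. Adjusted by Benjamini-Hochberg over the 6 comparisons of this kind it was 0.171, which does not pass, and this comparison was chosen after the data had been seen. The sham mean was 37.0 ± 9.7% (n = 3), with exact permutation p = 0.686 for ipsilateral against sham and 0.114 for contralateral against sham. The contralateral difference from sham, 11.3 points, was 1.68 points (exact permutation p = 0.714) with the next most counted isoform, and the ipsilateral one, -3.04 points, was -9.42 points (0.143). For Slc2a1 the share averaged 44.4 ± 5.6% in ipsilateral, 46.3 ± 8.8% in contralateral and 42.2 ± 12.3% in sham cortex, with exact permutation p from 0.571 to 0.800.

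**Figure D3:**
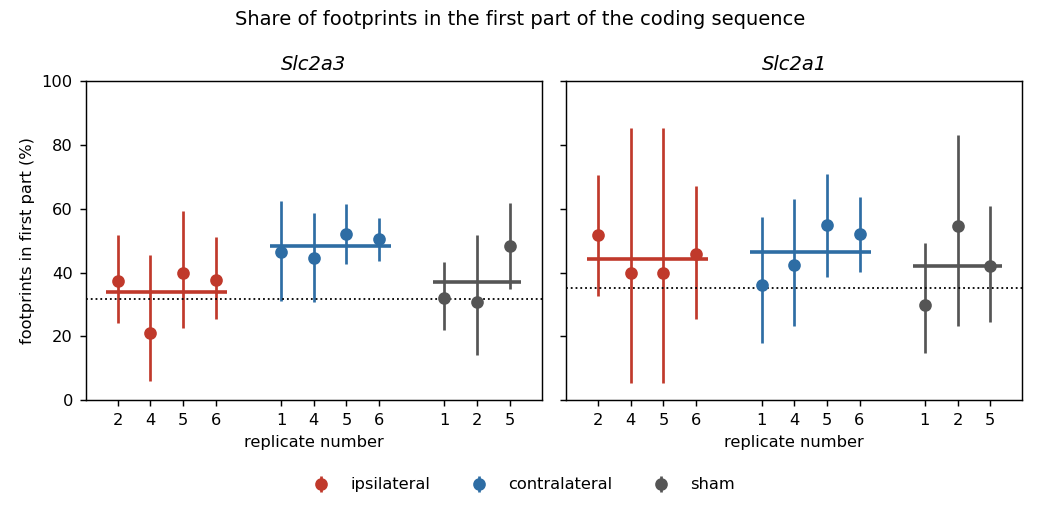
Counts of the isoform whose own coding sequence covers the first part of the main one, as a percentage of the gene's counts (vertical axis) per library, with Clopper-Pearson 95% intervals, group means as bars and, dotted, the percentage of the main coding sequence that this part covers. The 4 ipsilateral Slc2a3 points lie between 21.1% and 40.0%, below the contralateral points at 44.4% to 52.1%, and the Slc2a1 groups overlap.

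Other growth-arrest genes were read for comparison with Cdkn1a. Its relative Cdkn1b, which encodes the inhibitor p27, measured 66.0 ± 15.1 CPM in ipsilateral, 81.4 ± 20.0 CPM in contralateral and 71.8 ± 19.6 CPM in sham cortex. Of 22 listed cell cycle genes and kinase inhibitors 4 were tested, and 0 rose or fell in any comparison. Their median ipsilateral log2 change was 0.15 against sham and 0.06 against contralateral cortex, where the medians over all genes were -0.0011 and 0.013. Cdkn2d had a log2 change of 0.30 ± 0.53, the cyclin Ccnd2 of -0.12 ± 0.36 and the replication clamp Pcna of 0.43 ± 0.33 against sham. Pcna was higher in every ipsilateral than in every sham library, as were 3.91% of all genes (edgeR adjusted p = 0.823). Against contralateral cortex its libraries overlapped (0.26 ± 0.28). Of 39 listed p53-pathway and growth-arrest genes 7 were tested, and again 0 passed in any comparison. Against sham 2 of the 7 were above 0, with a median of -0.23, and 49.9% of all genes were above 0. Against contralateral cortex 3 of the 7 were above 0, with a median of -0.03 (51.4% of all genes above 0). In contralateral against sham 1 of the 7 was above 0, with a median of -0.17 (49.3% of all genes above 0). The stress-response gene Sesn3 measured 118 ± 40.7 CPM in ipsilateral against 183 ± 60.5 CPM in sham cortex (-0.34 ± 0.29), the transcription factor Foxo3 had a log2 change of -0.34 ± 0.31 and the growth-factor-like ligand gene Gas6 of 0.32 ± 0.48. Against contralateral cortex the changes of Sesn3, Foxo3 and Gas6 were -0.03 ± 0.27, -0.07 ± 0.29 and 0.26 ± 0.43. The kinase gene Plk2 measured 402 ± 40.0 CPM in ipsilateral against 312 ± 65.7 CPM in contralateral cortex (log2 change 0.32 ± 0.20, edgeR adjusted p = 0.723). In sham cortex Plk2 measured 387 ± 63.2 CPM, and its ipsilateral change against sham was 0.02 ± 0.22.

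Among 36 other hypoxia-induced genes 9 were tested, and 0 rose or fell in any comparison. Their median ipsilateral log2 change was 0.16 against sham, with 5 of 9 above 0, and 0.09 against contralateral cortex, with 6 of 9 above 0 (51.4% of all genes). Ddit4, which restrains mTOR signalling, had the largest change of the list against sham. It measured 156 ± 107 CPM in ipsilateral, 107 ± 57.6 CPM in contralateral and 73.9 ± 20.7 CPM in sham cortex (0.96 ± 0.48 against sham, edgeR adjusted p = 0.665), and its ipsilateral libraries ran from 37.1 to 293 CPM, below and above the sham range. The mitochondrial gene Higd1a had a log2 change of 0.55 ± 0.43 and the disulfide isomerase gene P4hb of 0.45 ± 0.26 against sham. Their changes against contralateral cortex were 0.18 ± 0.37 and -0.0066 ± 0.23. Against contralateral cortex the histone demethylase gene Kdm3a had a log2 change of 0.47 ± 0.35 and the transferrin receptor gene Tfrc of -0.47 ± 0.22. The changes of Kdm3a and Tfrc against sham were 0.24 ± 0.39 and -0.11 ± 0.25. Bhlhe40, a transcriptional repressor, was lower in every contralateral than in every sham library, as were 4.3% of all genes. It averaged 171 CPM in contralateral against 248 CPM in sham cortex (-0.53 ± 0.22, edgeR adjusted p = 0.854). Its ipsilateral change against sham was -0.44 ± 0.26.

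The oxygen-sensing machinery itself was read through 6 of 14 listed genes, with 0 passing in any comparison and a median ipsilateral change of -0.14 against sham and -0.03 against contralateral cortex. Hif1a, the oxygen-regulated HIF subunit, measured 151 ± 29.9 CPM in ipsilateral, 133 ± 38.1 CPM in contralateral and 114 ± 32.8 CPM in sham cortex (0.34 ± 0.30 against sham). Epas1, which encodes HIF-2 alpha, measured 160.0 ± 112 CPM in ipsilateral, 171 ± 28.8 CPM in contralateral and 187 ± 43.4 CPM in sham cortex. The partner gene Arnt2 measured 306 ± 19.0 CPM in ipsilateral, 266 ± 75.2 CPM in contralateral and 288 ± 38.6 CPM in sham cortex. Eloc and Cul2, subunits of the ubiquitin ligase that degrades HIF, had ipsilateral changes of -0.45 ± 0.35 and -0.27 ± 0.38 against sham, and -0.26 ± 0.32 and -0.49 ± 0.33 against contralateral cortex. Of the 17 glycolytic enzymes 16 were tested and 0 passed, with median changes of -0.12 against sham and -0.0068 against contralateral cortex. The phosphofructokinase gene Pfkm was lower in every ipsilateral than in every sham library, as were 3.29% of all genes. It measured 807 ± 57.7 CPM in ipsilateral against 1085 ± 139 CPM in sham cortex (-0.41 ± 0.16, edgeR adjusted p = 0.457). Pfkm was also lower in every contralateral than in every sham library, at 900 ± 50.2 CPM in contralateral cortex (-0.26 ± 0.15). Its ipsilateral change against contralateral cortex was -0.15 ± 0.15. The aldolase gene Aldoa was also lower in every contralateral than in every sham library (-0.21 ± 0.13), as were 4.3% of all genes. Pfkl and Pgk1 had changes of -0.59 ± 0.27 and 0.27 ± 0.26 against sham. Against contralateral cortex the lactate dehydrogenase gene Ldha had a change of -0.24 ± 0.21.

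Of the 12 other glucose and monocarboxylate transporter genes 4 were tested and 0 passed. The monocarboxylate carrier gene Slc16a1 measured 102 ± 13.1 CPM in ipsilateral, 71.4 ± 16.0 CPM in contralateral and 77.1 ± 40.8 CPM in sham cortex (0.65 ± 0.31 against contralateral, edgeR adjusted p = 0.629), and its chaperone gene Bsg had a log2 change of -0.0092 ± 0.16 against contralateral cortex. Slc2a13 had a log2 change of 0.07 ± 0.25 and Slc2a6 of 0.17 ± 0.49 between ipsilateral and sham. For the mitochondrial clearance that Bnip3 serves, 12 of 28 listed mitophagy and BCL2-family genes were tested and 0 passed. Its closest relative Bnip3l measured 136 ± 53.2 CPM in ipsilateral, 125 ± 12.9 CPM in contralateral and 96.0 ± 56.0 CPM in sham cortex (0.16 ± 0.33 against sham). The kinase gene Pink1 had a log2 change of -0.53 ± 0.27, Fkbp8 of -0.44 ± 0.28 and Gabarapl2 of 0.43 ± 0.26 against sham. The ipsilateral changes of Pink1, Fkbp8 and Gabarapl2 against contralateral cortex were 0.07 ± 0.25, 0.04 ± 0.26 and 0.36 ± 0.23. Pink1 was also lower in contralateral than in sham cortex (-0.59 ± 0.24). The median over the 12 was -0.15 against sham and 0.04 against contralateral cortex, where the BCL2-family gene Bcl2l1 had a change of 0.32 ± 0.34 and Gabarapl1 of -0.42 ± 0.30. The ipsilateral changes of Bcl2l1 and Gabarapl1 against sham were 0.37 ± 0.39 and 0.17 ± 0.34.

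**Figure D4:**
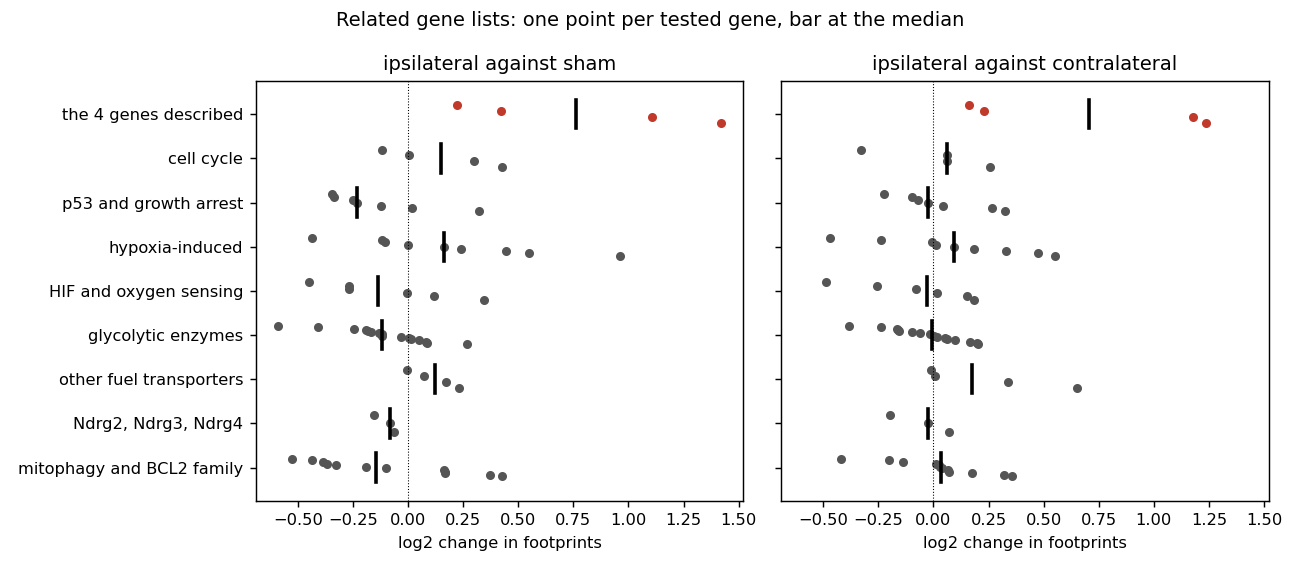
Ipsilateral log2 changes against sham (left) and contralateral cortex (right) for the 4 genes described and for each list of related genes, with a point per tested gene and a bar at the median. Cdkn1a and Ndrg1 lie at 1.42 and 1.11 on the left and at 1.24 and 1.18 on the right, and the listed genes lie between -0.59 and 0.96.

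Oligodendrocyte and microglia markers were set beside Cdkn1a and Ndrg1. The 8 oligodendrocyte markers tested, of 13 listed, were all above 0 against sham (median 0.91, 0 called) and against contralateral cortex (median 0.92, with Mbp, Mag and Cldn11 among those called by edgeR, at adjusted p of 0.00987, 0.0350 and 0.0372). Their summed level was 3142 to 7196 CPM in ipsilateral, 2350 to 3350 CPM in contralateral and 2377 to 3000.03 CPM in sham cortex, and none was at 0 throughout a group. By library it was 7196, 5749, 3142 and 4310.3 CPM in ipsilateral replicates 2, 4, 5 and 6. Replicate 2 was highest for both these markers and Ndrg1, but replicate 5 was lowest for the markers and replicate 6 for Ndrg1. In contralateral replicates 1, 4, 5 and 6 the markers summed to 2869.8, 3349.9, 2429 and 2349.7 CPM, in the inverse order of Ndrg1. In sham cortex, replicate 2 was highest for the oligodendrocyte markers, at 3000.03 CPM, and lowest for Ndrg1. The summed level of the 8 microglia markers with counts, of 10 listed, was 1398 to 1909.95 CPM in ipsilateral, 1101 to 1239 CPM in contralateral and 879.6 to 1054 CPM in sham cortex. Of the 7 tested, all 7 were above 0 in both ipsilateral comparisons, with 0 called. Ipsilateral replicate 6, the highest for Cdkn1a, was also the highest for these markers, and replicate 5, the lowest ipsilateral library for Cdkn1a, was the lowest of its group. In sham cortex, replicate 5 was highest for these markers and replicate 1 for Cdkn1a, and replicate 2 was lowest for both. In contralateral cortex, replicate 4 was highest for both, and replicate 6 was lowest for these markers and replicate 1 for Cdkn1a. Oligodendrocyte markers, like Cdkn1a, were lowest of the ipsilateral group in replicate 5 and highest of the contralateral group in replicate 4. Their highest ipsilateral library was replicate 2, whereas that of Cdkn1a was replicate 6. In sham cortex, replicate 2 was highest for oligodendrocyte markers and lowest for Cdkn1a. The 10 astrocyte markers summed to 8220.1 to 9253 CPM in ipsilateral, 7895 to 11977 CPM in contralateral and 7319 to 9345 CPM in sham cortex, with 7 of 10 above 0 against sham (median 0.11), 4 of 10 above 0 against contralateral cortex (median -0.01) and 0 called. Summed globin markers, 4 of the 7 blood markers listed, were 1041 to 2024 CPM in ipsilateral, 566 to 989 CPM in contralateral and 895 to 1324 CPM in sham cortex. The alpha-globin genes Hba-a1 and Hba-a2, near-identical copies whose reads the counting could split, were called against contralateral cortex (edgeR adjusted p = 0.0099 and 0.0257). The part of any of these cells in the Cdkn1a and Ndrg1 values was not tested.

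**Figure D5:**
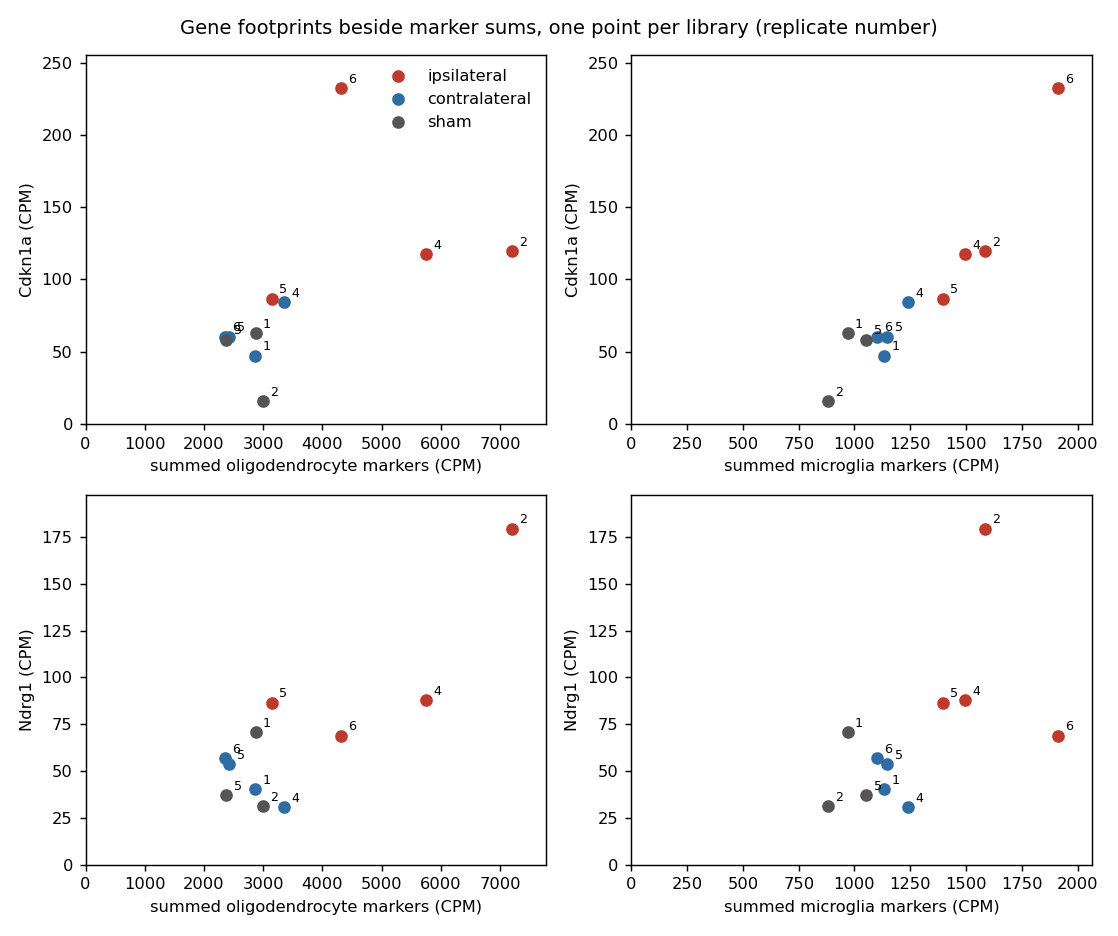
Footprints of Cdkn1a (top) and Ndrg1 (bottom) in CPM against the summed CPM of oligodendrocyte markers (left) and microglia markers (right), with a point per library labelled by its replicate number. Ipsilateral replicate 2 is highest for Ndrg1 and oligodendrocyte markers, and ipsilateral replicate 6 for Cdkn1a and microglia markers. Sham replicate 2 is the highest of its group for oligodendrocyte markers and the lowest for Ndrg1. Ipsilateral replicate 5 is the lowest of its group for Cdkn1a and for both sets of markers.

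Across the 11 libraries the log2 CPM of the 4 genes correlated with each other from -0.12 (Ndrg1 with Slc2a1) to 0.59 (Cdkn1a with Ndrg1). The genes whose profile was nearest to Cdkn1a by Pearson's r were Fam120b (0.90), Hspa5 (0.90), the chaperone BiP of the endoplasmic reticulum, and the RNA helicase gene Ddx24 (0.89). Nearest to Ndrg1 were the ribosomal protein gene Rpl3 (0.89), the splicing factor gene Sf3a1 (0.87) and the septin gene Sept4 (0.83). Nearest to Slc2a1 were the cargo receptor gene Tmed10 (0.94), Cebpz (0.94) and Ajap1 (0.91), and nearest to Slc2a3 were the peroxisomal enzyme gene Hsd17b4 (0.92), Tacc2 (0.89) and the transcriptional repressor gene Scrt1 (0.89). All of these profiles share the same libraries and their depths, and each r was picked as the highest among all other genes tested, so these are descriptions of 11 points.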

How the data were processed

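Footprints of 11 libraries were deposited as raw counts, one row for each Ensembl transcript. The submitters' processing notes list Bowtie2, edgeR and mm10 with no roles. The counting tool, its use of strand and the annotation release were not given in the sources used here. Every transcript has a summed count of at least 101, and transcripts below that are not analysed here. Of 9784 transcripts 9736 matched GENCODE vM21, and the other 48 (0.306% of counts) were left out.

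The test was the quasi-likelihood F test of edgeR 4.0.16 (R 4.3.3), after filterByExpr with a minimum count of 10 (3835 of 4338 genes kept, all 4 genes described among them), with TMM factors, a robust fit of all 11 libraries and Benjamini-Hochberg adjustment at 0.05. The SE is the log2 change divided by the root of F, and 95% intervals use the t distribution of the fit. CPM were computed from the kept counts. Shares were compared with exact permutation tests (Python 3.11.15, scipy 1.17.1). DESeq2 1.42.0 and limma 3.58.1 were alternatives. Intervals of counts cover counting error only.

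The genes, the lists and the rule for named genes (family members, pathway regulators and the 3 largest changes of each list in a comparison) were chosen with earlier results of these data known. Not every gene that met this rule is named above. Replicate numbers mark days of surgery per the series' design text, so they pair libraries by day. Deviations from group means correlated at a median r of 0.131 over the 7 same-number pairs and -0.030 over the 33 other pairs. No label ties libraries of one number to one animal. The value of 1 marker gene is not reported here.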

Additional observations from a re-analysis of the deposited data

Results flagged for a closer look

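Among 12 groups of 4 libraries checked for a library that stands apart, 2 were flagged, where chance flags about 1 in 20. Slc2a3 in contralateral cortex was lowest in replicate 1, at 289.7 CPM, with the next library at 400.4 CPM. The share of Slc2a3 counts held by the short isoform, which marks the first part of the coding sequence, was lowest in ipsilateral replicate 4, at 21.1%, with the next library at 37.3%, and this library held 19 Slc2a3 counts.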

How the results depend on the processing

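Of 239 recomputed changes of the 4 genes, 227 were counted as keeping their direction and their side of the threshold. Changes for which DESeq2 gave no adjusted p were counted by direction alone. The total includes fits without a library of the group not compared, which enters only through the shared filter, normalization and spread. Of the 4 genes, 0 were called in each comparison, and 0 to 1 in each ipsilateral comparison when single libraries were left out: Cdkn1a passed in both without ipsilateral replicate 5. Over all genes, 4 were called ipsilateral against sham, 14 ipsilateral against contralateral and 0 contralateral against sham. Other settings gave 3 to 6, 7 to 14 and 0 to 2 in these comparisons, and leaving out single libraries gave 0 to 22, 4 to 26 and 0 to 3, where ipsilateral replicate 5 left out gave the 22 and 26. In the edgeR fit that blocks on replicate number, 0 of the 4 genes were called, Cdkn1a had ipsilateral changes of 1.30 against sham (adjusted p = 0.746) and 1.41 against contralateral (0.124), and Ndrg1 of 1.15 (0.746) and 0.93 (0.632). The block changed no call of the 4 genes and gave 3 and 11 calls over all genes in the ipsilateral comparisons. Small changes turned sign under it: Slc2a1 ipsilateral against contralateral was -0.0081, and against sham contralateral Cdkn1a was -0.11 and Ndrg1 0.22. With counts summed over isoforms Slc2a3 was -0.040 ipsilateral against contralateral. Leaving out single libraries, Slc2a1 ran from -0.0042 to 0.48 ipsilateral against sham, from -0.079 to 0.41 ipsilateral against contralateral and from -0.12 to 0.19 contralateral against sham, and Ndrg1 from -0.30 to 0.48 contralateral against sham. Ndrg1 could not be fitted with the ipsilateral and contralateral groups alone, since it missed the count filter there.

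The share of Slc2a3 footprints in the first part of the frame, ipsilateral minus contralateral, was -11.1 points with the next isoform (exact permutation p = 0.0571) and -16.4 to -10.1 points without single libraries (exact p from 0.0286 to 0.0571, higher without contralateral replicate 5 or 6). Ipsilateral against sham it was -9.42 points with the next isoform (exact permutation p = 0.143) and -6.18 to 2.57 points without single libraries. Contralateral against sham it was 1.68 points with the next isoform (exact permutation p = 0.714), against 11.3 points, and 8.19 to 16.9 points without single libraries. The Slc2a1 share turned sign with the next isoform, to 4.72 points ipsilateral against contralateral and -3.07 contralateral against sham. Without single libraries it ran from -5.38 to 0.953, from -1.91 to 10.4 and, ipsilateral against sham, from -3.85 to 8.42 points. The alternatives for these shares were chosen after seeing the data. The causes of these shifts were not tested. At the depth of ipsilateral replicate 4 a count of 0 still allows 85.5 CPM before TMM scaling, so changes of genes as scarce as Ndrg1 rest on few counts.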
